A study of Mus musculus with 30 samples.

Results

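Bone and brain stroma were compared beside tumours of the same cell line, Brx50, in 7 of the 30 mouse RNA libraries of the study. The 7 were chosen by their column labels alone: 4 libraries of bone stroma and 3 libraries of brain stroma, all exposed to Brx50. Brx50 is a culture of circulating tumour cells (CTCs) grown from the blood of a patient with breast cancer. Per the labels' protocols, 100000 Brx50 cells carrying GFP and luciferase were placed in the left cardiac ventricle of female NSG mice aged 6 to 8 weeks that received slow-release estrogen. NSG is an immunodeficient strain that lacks mature lymphocytes and natural killer cells. Lesions were dissociated, cells without GFP were sorted, and total RNA of 50000 of them made each library. Stroma of tumour-free mice, 3 libraries of bone and 2 of brain, served as the background between the tissues. The sources used here do not say whether the tumour-free mice received estrogen. The labels of these groups say bone or brain and name no skeletal site or brain region.

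Bone and brain are both frequent sites of breast cancer metastasis and offer tumour cells very different neighbours. Bone holds collagen-secreting osteoblasts, bone-resorbing osteoclasts, cartilage and a blood-forming marrow with leaky sinusoidal vessels, and its matrix stores growth factors of the TGF-beta and insulin-like families. Brain holds neurons, myelinating oligodendrocytes, astrocytes and microglia, its matrix is built on hyaluronan and proteoglycans in place of fibrillar collagen, and its capillaries form the blood-brain barrier.

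Library totals were 4289012 to 9685820 counts in Brx50 brain, 7309251 to 10313036 in Brx50 bone, 10625392 to 12989953 in tumour-free bone and 6270956 and 7504650 in tumour-free brain. Genes with at least 1 count numbered 21778 to 23737 in the Brx50 bone libraries and 16344, 19139 and 23074 in brain replicates 1, 2 and 3. Gm26917, an abundant noncoding RNA, took 4.18% to 7.68% of counts in Brx50 bone and 2.32% to 4.18% in Brx50 brain. Mitochondrial genes took 3.88%, 0.876%, 0.502% and 0.155% in bone replicates 1 to 4 and 4.40%, 1.73% and 3.18% in brain replicates 1 to 3. Malat1, another noncoding RNA, took 4.04% in bone replicate 4 and 0.689% to 1.75% in the other Brx50 libraries. The part of these shares in the results was not tested. Brx50 bone replicates 2 and 3 stood apart from replicates 1 and 4: neutrophil transcripts, which mark bone marrow, were abundant in the first pair and nearly missing from the second, as detailed with the neutrophil genes. Replicates of the exposed groups varied more than those of the tumour-free groups: the biological coefficient of variation, the spread between replicates beyond counting noise, was 0.547 in Brx50 bone and 0.397 in Brx50 brain against 0.134 and 0.131. The label code 83.2 is carried by Brx50 bone replicate 2 and Brx50 brain replicate 3, without a statement of what it marks. Nothing in the labels says that the libraries came from separate mice, so p-values measure the spread between these libraries only, part of which may be technical.

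The first question was which genes separate bone from brain stroma beside Brx50. Levels are given as CPM, a gene's counts divided by the library total and scaled alike in all libraries, and differences as the fitted log2 of bone over brain ± SE. The SE was derived from the test. It is the size of the difference divided by the square root of the F statistic of edgeR's quasi-likelihood test. Of 17272 genes tested with edgeR's quasi-likelihood test, 2630 (15.2%) passed a Benjamini-Hochberg adjusted p of 0.05. Bone was higher for 1017 of them (5.89% of genes tested) and brain for 1613 (9.34%), and the median over all genes tested was 0.13. That median was 0.19 with RLE scaling and 0.08 with upper quartile scaling. An unadjusted p under 0.05 was found for 5355 genes (31.0%). The 4 bone libraries all lay above the 3 brain libraries for 1706 tested genes (9.88%) and all lay below them for 3916 (22.7%). Counts of calls changed when a library was left out. Leaving out brain replicate 3 left 290 bone-higher and 772 brain-higher genes, and brain replicate 1 left 294 and 984. Leaving out brain replicate 2 left 438 bone-higher genes, and bone replicate 3 left 609. A smaller group by itself makes a call harder to reach. A lost call therefore need not mean that a single library carried a difference. With bone replicates 1 and 4 both left out 1798 and 1736 of 17807 genes were called. With bone replicates 2 and 3 left out 1655 and 1411 of 17699 were. The calls in a gene list are to be read against these shares of all genes tested.

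In tumour-free mice the same comparison called 13976 of 18284 genes (76.4%), 6886 higher in bone and 7090 higher in brain. Of the bone-higher genes beside Brx50, 958 (94.2%) were also called higher in tumour-free bone, which is 13.9% of that tumour-free list. Of the brain-higher genes, 1600 (99.2%) were also called higher in tumour-free brain, 22.6% of the tumour-free list. Genes called in opposite directions numbered 0. Another 27 bone-higher and 5 brain-higher genes were tested and not called in tumour-free mice, and 32 and 8 were not tested there. In bulk RNA a lower level can mean fewer cells of a type or less RNA per cell, and these cannot be told apart.

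Myelin genes differed uniformly. All 10 oligodendrocyte markers were higher in brain (median log2 -6.19, or -5.99 with Mog, a gene without counts in bone, set at its bound), and all 10 passed in each of the 7 fits that left out 1 library. Mag, an adhesion protein that holds myelin against the axon, stood at 8.89, 4.05, 7.37 and 4.00 CPM in the bone libraries and at 246, 509 and 475 CPM in the brain libraries. Its fitted difference was -5.80 ± 0.50 (adjusted p = 0.00117). Every brain library lay above every bone library. Mog, a myelin surface protein, had 0 counts in all 4 bone libraries and 24.7, 35.8 and 14.7 CPM in the brain libraries, at least 72.6-fold higher in brain with a floor of 3 counts per bone library. Mobp, a protein of compact myelin, stood at 0, 20.4, 13.9 and 13.3 CPM in bone and 8344, 4729 and 4030.0 CPM in brain. Summed over the 10 genes, the list reached 41481, 32392 and 24246 CPM in Brx50 brain and 12132 and 21560.0 CPM in tumour-free brain, against 237, 327, 369.6 and 221 CPM in Brx50 bone.

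Neurons and astrocytes showed the same direction with more spread. Of 12 neuron markers 9 were higher in brain (median -4.92), and of 10 astrocyte markers 7 (median -5.33). Camk2a, a kinase of excitatory neurons, stood at 5.61, 9.12, 9.70 and 7.43 CPM in bone and 1736, 440.4 and 2676 CPM in brain (log2 -7.42 ± 0.72, adjusted p = 0.00164). Gad1, the enzyme that makes GABA, stood at 0.821, 1.01, 1.07 and 2.51 CPM in bone and 193, 64.1 and 114 CPM in brain (log2 -6.24 ± 0.56, adjusted p = 0.00126). Groups were separate for both genes, and brain replicate 2 was the lowest brain library for both. Snap25, a vesicle fusion protein, ran from 0 CPM in bone replicate 1 to 754, 164 and 509.7 CPM in the brain libraries, with 0, 29.1, 26.0 and 18.1 CPM in the bone libraries in order (adjusted p = 0.0474). The neuron count was 6 of 12 without bone replicate 2 or 4 or without brain replicate 1 or 3. Syt1, Stmn2 and Tubb3, a vesicle sensor and 2 cytoskeletal genes, were the neuron markers that did not pass, with adjusted p of 0.0646, 0.253 and 0.657.

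Gfap, the intermediate filament of astrocytes, stood at 1.78, 3.72, 3.30 and 2.17 CPM in bone and 174, 138 and 564 CPM in brain (log2 -6.49 ± 0.66, adjusted p = 0.00184). S100b, a calcium-binding protein of glia, stood at 9.71, 11.4, 11.3 and 10.2 CPM in bone and 633, 663 and 386 CPM in brain (log2 -5.43 ± 0.34, adjusted p = 0.000707). Slc1a2, the main glutamate transporter, stood at 6.29, 52.0, 48.8 and 20.1 CPM in bone and 1433, 4002 and 3056 CPM in brain (log2 -6.22 ± 0.84, adjusted p = 0.00346). No bone library overlapped a brain library for any of these astrocyte genes. Gja1, a gap junction protein of astrocytes that bone cells also make, overlapped between the groups (adjusted p = 0.748). Snap25 no longer passed without bone replicate 2, 3 or 4 or brain replicate 1, 2 or 3 (adjusted p up to 0.126). Camk2a, Gad1, Gfap, S100b and Slc1a2 were called in each fit that left out 1 library.

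**Figure D1:**
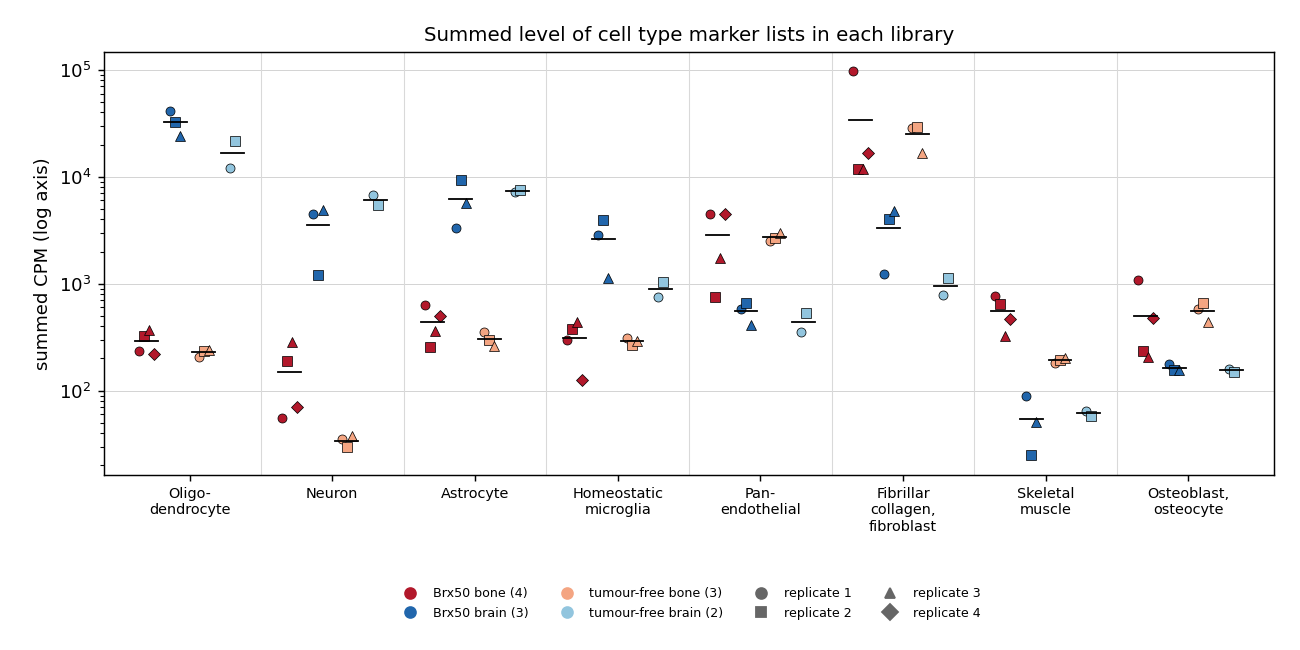
Summed CPM of 8 marker lists in each library, on a log axis, for Brx50 bone (4), Brx50 brain (3), tumour-free bone (3) and tumour-free brain (2), with a bar at each group mean and the symbol shape giving the replicate. Oligodendrocyte sums lie at 24246 to 41481 CPM in Brx50 brain and at 221 to 370 CPM in Brx50 bone, while the fibrillar collagen sum of Brx50 bone replicate 1 (97028 CPM) lies above the other 3 bone libraries.

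Matrix genes of brain were also uniform. All 7 genes of the perineuronal matrix were higher in brain (median -5.25), in every fit that left out a library. Hapln2, a link protein that ties hyaluronan to proteoglycans at nodes of myelinated axons, stood at 0.137, 0.338, 0.291 and 1.03 CPM in bone and 90.5, 119 and 127 CPM in brain (log2 -7.66 ± 0.59, adjusted p = 0.00109). Ncan, the proteoglycan neurocan, stood at 0.274, 2.25, 4.65 and 1.60 CPM in bone and 161, 407 and 231 CPM in brain (log2 -6.64 ± 0.79, adjusted p = 0.00248). Both genes were separate between the groups. Of 12 genes of synapses and neurotrophins 8 were higher in brain (median -3.04), among them the glutamate receptor subunit Grin2b (2.60, 0.676, 1.07 and 4.23 CPM in bone, 507, 173 and 625 CPM in brain, adjusted p = 0.00208). Hapln2, Ncan and Grin2b passed in all 7 fits that left out 1 library.

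Among the 10 brain-higher genes of largest fold with at least 10 CPM and no overlap, 4 had no counts in any bone library. They were Mog, the calcium channel subunit gene Cacng3, the glycine transporter gene Slc6a5 and the potassium channel subunit gene Kcnv1. Cacng3 stood at 28.2, 5.78 and 19.96 CPM in brain (at least 52.1-fold higher), Slc6a5 at 23.8, 6.50 and 17.6 CPM (at least 46.2-fold) and Kcnv1 at 21.9, 4.34 and 9.98 CPM (at least 35.0-fold). Hs3st4, Gabrg1, Sox1 and Slc25a18, a heparan sulfate enzyme, a GABA receptor subunit, a neural stem cell regulator and a mitochondrial glutamate carrier, had 1 or 2 counts over the 4 bone libraries. The pooled rate of Sox1 in brain was 747 times (95% counting interval 206 to 6179.8) that in bone, and that of Gabrg1 1303 times (95% counting interval 233 to 51544). Ttr, a thyroid hormone carrier made by the choroid plexus, stood at 0.410, 0.563, 6.50 and 0 CPM in bone and 957, 1671 and 194 CPM in brain (log2 -8.68 ± 1.56, adjusted p = 0.00939). Brain replicate 3 held the least Ttr of the brain libraries, and still more than any bone library. Of 8 choroid plexus and ependyma markers 4 were higher in brain (median -3.12), and 2 without brain replicate 3. Of 13 forebrain and midbrain transcription factors 4 were (median -1.16), and 2 without brain replicate 3.

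Microglial genes were higher in brain, but the count of calls fell when a library was left out. Over all genes tested the brain-higher count of 1613 fell as well, to 984, 1326 and 772 without brain replicates 1, 2 and 3. For 10 of the 12 homeostatic markers every brain library lay above every bone library. Of 12 homeostatic microglia markers 10 passed (median -3.53), and 4 without brain replicate 1, 5 without brain replicate 2 and 6 without bone replicate 4. P2ry12, a purine receptor of surveying microglia, stood at 3.28, 2.59, 4.36 and 2.97 CPM in bone and 295, 314 and 51.6 CPM in brain (log2 -5.75 ± 0.62, adjusted p = 0.00208). Cx3cr1, the fractalkine receptor, stood at 14.8, 42.8, 47.3 and 4.00 CPM in bone and 627, 876 and 240.3 CPM in brain (log2 -4.12 ± 0.83, adjusted p = 0.0149). Groups did not overlap for either, and brain replicate 3 held the lowest brain value of both. Trem2, a lipid receptor that switches microglia to a disease-associated state, stood at 11.8, 10.4, 15.0 and 3.08 CPM in bone and 169, 149.6 and 49.7 CPM in brain (log2 -3.30 ± 0.60, adjusted p = 0.00968). Apoe, a lipid carrier of astrocytes and activated microglia, stood at 531, 242, 813 and 266 CPM in bone and 1651, 3096 and 2012 CPM in brain (log2 -2.01 ± 0.54, adjusted p = 0.0395). Of the 12 disease-associated genes 2 were higher in brain and 1 in bone (Lpl, a lipase of adipocytes and macrophages). Over all genes tested the shares were 9.34% and 5.89%, so these counts are too small to set the list apart. The median of this list was 0.32. Its brain-higher count was 1 in 6 of the 7 fits that left out a library, all but the one without bone replicate 3. Its median was -0.25 without bone replicate 2. The call of Apoe ended without bone replicate 1, 2 or 4 or brain replicate 1, 2 or 3 (adjusted p up to 0.11). P2ry12, Cx3cr1 and Trem2 were called in each fit that left out 1 library.

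Macrophage genes divided by kind. Of 14 markers 4 were higher in brain (C1qa, C1qb and C1qc, the chains that start the classical complement pathway, and Csf1r, the receptor macrophages need to survive), and 3 in bone (Cd163, Lyve1 and Mrc1, scavenger and endocytic receptors of resident tissue macrophages). C1qa stood at 75.1, 38.7, 93.9 and 19.4 CPM in bone and 504, 460.4 and 275 CPM in brain (log2 -2.57 ± 0.54, adjusted p = 0.0176). Cd163 stood at 34.6, 14.0, 27.5 and 29.5 CPM in bone and 4.43, 7.85 and 3.01 CPM in brain (log2 2.65 ± 0.50, adjusted p = 0.0114), and Lyve1 at 70.6, 16.1, 16.9 and 28.7 CPM in bone and 4.66, 4.44 and 2.22 CPM in brain (log2 3.45 ± 0.70, adjusted p = 0.0149). No library of one tissue reached the range of the other for these 3 genes. The complement list holds the same 3 C1q chains, so its brain-higher calls repeat those of the macrophage list. Of its 8 tested genes these 3 were higher in brain, and the 2 C1 proteases C1s1 and C1ra in bone. C1s1 stood at 214, 54.8, 61.1 and 123 CPM in bone and 0, 1.14 and 6.81 CPM in brain (adjusted p = 0.0196). Without brain replicate 1 the brain-higher counts of the macrophage and complement lists were both 0, without brain replicate 2 or 3 both were 1, and without bone replicate 2 both were 2. For C1qa the call ended without brain replicate 1, with an adjusted p of up to 0.0623. Cd163 lost its call when brain replicate 1 or 3 was left out (adjusted p up to 0.0596). The call of Lyve1 ended without brain replicate 1, 2 or 3 (adjusted p up to 0.0741). C1s1 no longer passed without brain replicate 2 (adjusted p up to 0.0716).

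On the bone side, skeletal muscle transcripts were higher with little dependence on single libraries. Of 10 muscle markers 9 were higher in bone (median 5.86), and 7 or more in each fit that left out a library. Tnnt3, the fast troponin T gene, stood at 59.6, 64.9, 28.3 and 52.1 CPM in bone and 0, 0 and 0.317 CPM in brain (adjusted p = 0.00185). The brain value rests on 2 counts, and the pooled rate in bone was 506 times (95% counting interval 140.0 to 4185) that in brain. Acta1, skeletal muscle actin, stood at 213, 224, 118 and 133 CPM in bone and 7.69, 1.45 and 1.74 CPM in brain (log2 5.92 ± 0.76, adjusted p = 0.00305). The groups were separate for all 9 genes. Ryr1, the calcium release channel, was the member that did not pass (adjusted p = 0.982). The list summed to 766, 643, 327 and 471 CPM in Brx50 bone and to 181, 192 and 201 CPM in tumour-free bone. The calls of Tnnt3 and Acta1 held whichever library was left out.

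Genes of bone cells were higher in bone in part. Of 11 osteoblast and osteocyte markers 4 passed (median 2.25), of 8 osteoclast markers 4 (median 1.77), of 10 marrow niche factors 4 (median 1.68) and of 11 joint and cartilage markers 5 (median 4.53). Runx2, the transcription factor that commits cells to the osteoblast fate, stood at 121, 68.8, 61.1 and 120.0 CPM in bone and 7.93, 17.0 and 20.3 CPM in brain (log2 2.88 ± 0.48, adjusted p = 0.00695). Ibsp, a sialoprotein of mineralizing matrix, stood at 249, 37.1, 16.7 and 23.1 CPM in bone and 0, 0.206 and 3.80 CPM in brain (log2 6.20 ± 1.65, adjusted p = 0.0396). Bone replicate 1 held the highest value of both. Bglap, which encodes osteocalcin and has the near-identical neighbour Bglap2, stood at 23.1, 6.64, 3.59 and 4.00 CPM in bone with no counts in brain, at least 18.9-fold higher with a floor of 3 counts per brain library.

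Lepr, the leptin receptor that marks marrow stromal cells, stood at 121, 28.6, 30.8 and 75.5 CPM in bone and 6.99, 9.40 and 7.29 CPM in brain (log2 3.31 ± 0.62, adjusted p = 0.0113). Cxcl12, the chemokine that holds blood stem cells and CXCR4-bearing tumour cells in marrow, stood at 664, 102, 277 and 1312 CPM in bone and 92.6, 117 and 71.9 CPM in brain (log2 2.91 ± 0.82, adjusted p = 0.0464). Its groups overlapped, since bone replicate 2 fell below brain replicate 2. Cilp, a protein of cartilage matrix, stood at 270.3, 15.8, 25.0 and 38.6 CPM in bone and 0.233, 0 and 0.634 CPM in brain (adjusted p = 0.0123). Comp, which links cartilage collagens, stood at 524, 40.7, 103 and 54.4 CPM in bone and 0, 4.03 and 3.80 CPM in brain (adjusted p = 0.0241). Both were separate between the tissues and highest in bone replicate 1. Many calls here were lost when a library was left out. The osteoclast count was 0 without bone replicate 1 or without brain replicate 1 or 3, 1 without bone replicate 3 and 2 without bone replicate 2 or brain replicate 2. Without bone replicate 1 or any 1 brain replicate the osteoblast count was 2. The cartilage count was 0 without brain replicate 1, 1 without brain replicate 3 and 3 without brain replicate 2 or bone replicate 1 or 3. Marrow niche calls numbered 1 without brain replicate 3 and 2 without brain replicate 1. Ibsp lost its call when bone replicate 1 or brain replicate 1 or 2 was left out (adjusted p up to 0.115). The call of Lepr ended without brain replicate 1 or 3 (adjusted p up to 0.0623). Cxcl12 no longer passed without bone replicate 1, 3 or 4 or brain replicate 1, 2 or 3 (adjusted p up to 0.154). For Cilp the call ended without brain replicate 1, with an adjusted p of up to 0.0594. Comp lost its call when brain replicate 1, 2 or 3 was left out (adjusted p up to 0.0898). The call of Runx2 held whichever library was left out.

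Fibrillar collagen and fibroblast matrix genes had a median of 3.71, and 8 of 15 were higher in bone. Col1a1, a chain of the main collagen of bone, stood at 29805, 3203, 2884 and 3791 CPM in bone and 51.5, 564 and 607 CPM in brain (log2 4.93 ± 1.41, adjusted p = 0.0495). Postn, a matricellular protein of periosteum and tumour stroma, stood at 3537, 133, 98.0 and 593 CPM in bone and 16.1, 20.6 and 13.1 CPM in brain (log2 6.38 ± 1.53, adjusted p = 0.0271). Dcn, a small proteoglycan that coats collagen fibrils, stood at 2395, 488, 503 and 495 CPM in bone and 0.466, 41.7 and 55.0 CPM in brain (log2 5.20 ± 1.45, adjusted p = 0.0453). Bone replicate 1 was highest for all 3 genes, several times above the other bone libraries, and the groups did not overlap. The count was 0 without brain replicate 2 or 3, 1 without brain replicate 1 or bone replicate 4, 2 without bone replicate 3 and 5 without bone replicate 1. With bone replicates 2 and 3 both left out it was 13, and with bone replicates 1 and 4 left out it was 7. Col1a1 no longer passed without bone replicate 1, 3 or 4 or brain replicate 1, 2 or 3 (adjusted p up to 0.134). For Postn the call ended without brain replicate 1, 2 or 3, with an adjusted p of up to 0.109. Dcn lost its call when bone replicate 1, 3 or 4 or brain replicate 2 or 3 was left out (adjusted p up to 0.121).

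Of 11 basement membrane genes 6 were higher in bone (median 2.53), 0 without any 1 of the brain replicates, 3 without bone replicate 1, 3 or 4 and 11 without bone replicate 2. Hspg2, the heparan sulfate proteoglycan perlecan, stood at 3677, 426, 1106 and 2609 CPM in bone and 86.7, 139 and 224 CPM in brain (log2 3.97 ± 0.87, adjusted p = 0.0203). Col4a1, the sheet-forming collagen, stood at 2791, 374, 813 and 1307 CPM in bone and 141, 199.98 and 355 CPM in brain (log2 2.79 ± 0.78, adjusted p = 0.0465). Bone replicates 1 and 4 were the highest for both. Of 14 matrix proteases and inhibitors 3 were higher in bone, among them Mmp2, a gelatinase, and Plaur, the urokinase receptor. Mmp2 stood at 1566, 162, 214 and 352 CPM in bone and 9.09, 59.5 and 29.5 CPM in brain (adjusted p = 0.0311). The count was 0 without any 1 of the brain replicates and 2 without bone replicate 3 or 4. The calls of Hspg2 and Mmp2 ended without brain replicate 1, 2 or 3 (adjusted p up to 0.117). Col4a1 no longer passed without bone replicate 1, 3 or 4 or brain replicate 1, 2 or 3 (adjusted p up to 0.156).

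Genes shared by all endothelium were mostly higher in bone, and a minority of blood-brain barrier genes were higher in brain. Of 12 genes shared by all endothelium 10 were higher in bone (median 3.04), whereas of 10 genes of the blood-brain barrier 3 were higher in brain and 0 in bone (median -1.36). Pecam1, the junction protein CD31, stood at 582.4, 114, 226 and 499 CPM in bone and 40.8, 48.5 and 32.5 CPM in brain (log2 3.42 ± 0.63, adjusted p = 0.0104). Cdh5, endothelial cadherin, stood at 768, 125, 251 and 585 CPM in bone and 41.0, 60.9 and 47.2 CPM in brain (log2 3.41 ± 0.68, adjusted p = 0.0143). Kdr, the main receptor for VEGF, stood at 692, 109, 267 and 637 CPM in bone and 29.1, 61.6 and 39.4 CPM in brain (log2 3.58 ± 0.72, adjusted p = 0.0144). The groups did not overlap for these genes, and bone replicates 1 and 4 were several times above bone replicate 2. Erg, an endothelial transcription factor, differed least among the bone libraries, at 12.2, 9.57, 10.4 and 11.3 CPM in bone and 0.933, 1.45 and 0.475 CPM in brain (log2 3.76 ± 0.58, adjusted p = 0.00524).

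Slco1c1, a thyroxine transporter of brain capillaries, stood at 2.05, 2.37, 2.13 and 3.77 CPM in bone and 95.4, 223 and 47.8 CPM in brain (log2 -5.27 ± 0.56, adjusted p = 0.00196). Spock2, a proteoglycan of brain endothelium and neurons, stood at 85.4, 52.6, 112 and 111 CPM in bone and 695, 416 and 563 CPM in brain (log2 -2.37 ± 0.37, adjusted p = 0.00524). Neither overlapped between the tissues. Abcb1a, the drug efflux pump of the barrier, did not pass, with 76.5, 17.8, 42.4 and 96.8 CPM in bone and 44.3, 75.6 and 42.1 CPM in brain (adjusted p = 0.662). The blood-brain barrier count was 3 or 4 in every fit that left out a library. The shared endothelial count was 1 without brain replicate 1 or 3, 4 without brain replicate 2, 5 without bone replicate 4 and 6 without bone replicate 1. It was 12 with bone replicates 2 and 3 left out, and 6 with bone replicates 1 and 4 left out. For Pecam1, Cdh5 and Kdr the calls ended without brain replicate 1 or 3, with an adjusted p of up to 0.0733. Erg, Slco1c1 and Spock2 were called in each fit that left out 1 library.

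**Figure D2:**
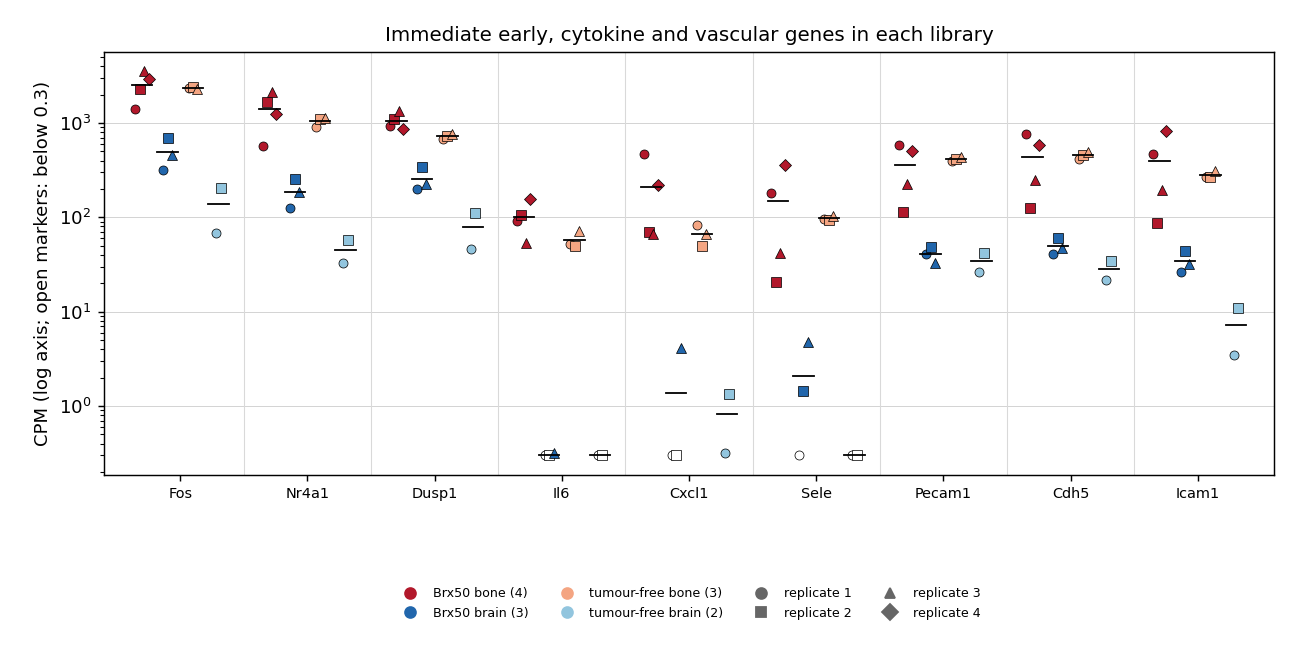
CPM of 9 genes in each library on a log axis, with open markers for values below 0.3 CPM, a bar at each group mean and the symbol shape giving the replicate. The 4 Brx50 bone libraries lie above the 3 Brx50 brain libraries for every gene shown, with Il6 at 52.9 to 156 CPM in bone and at most 0.317 CPM in brain.

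Immediate early genes, which encode the first transcription factors and feedback regulators made after a stimulus and which tissue dissociation can also induce, were all higher in bone. All 13 passed with a median of 2.64, and for all 13 the bone libraries lay above the brain libraries. Fos, a subunit of the AP-1 factor, stood at 1404, 2314, 3539.6 and 2899 CPM in bone and 315, 693 and 454 CPM in brain (log2 2.64 ± 0.52, adjusted p = 0.0132). Fosb, its relative, stood at 2214, 1267, 2541 and 5633 CPM in bone and 235, 253 and 177 CPM in brain (log2 3.97 ± 0.63, adjusted p = 0.00605). Egr1, a zinc finger factor, stood at 2756, 1292, 1838 and 3072 CPM in bone and 395, 343 and 364 CPM in brain (log2 2.88 ± 0.49, adjusted p = 0.00748). The lowest bone library exceeded the highest brain library for each.

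Nr4a1, an orphan nuclear receptor, stood at 567, 1682, 2116 and 1253 CPM in bone and 124, 253 and 185 CPM in brain (log2 3.16 ± 0.57, adjusted p = 0.00933). Dusp1, a phosphatase that switches off stress kinases, stood at 925, 1094, 1348 and 861 CPM in bone and 198, 339.7 and 224 CPM in brain (log2 2.33 ± 0.40, adjusted p = 0.00774). Atf3, a stress-induced factor, stood at 441, 355, 759.8 and 859.8 CPM in bone and 88.6, 214 and 133 CPM in brain (log2 2.31 ± 0.47, adjusted p = 0.0156). Brain replicate 2 was the highest brain library for all 3. The count of 13 was the same without bone replicates 1 and 4 and without bone replicates 2 and 3, and it was 7 without brain replicate 1 and 2 without brain replicate 3. In tumour-free mice the list was also higher in bone for 13 of 13, with a median of 4.05 and sums of 14199, 13827 and 14491 CPM in bone against 706 and 1480.1 CPM in brain. The Brx50 sums were 13057, 13196, 19969 and 22132 CPM in bone and 2699, 4336 and 2862 CPM in brain. The calls of Fos and Atf3 ended without brain replicate 1 or 3 (adjusted p up to 0.0793). Egr1, Nr4a1 and Dusp1 no longer passed without brain replicate 3 (adjusted p up to 0.0594). Fosb was called in each fit that left out 1 library.

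Promoter sequences of 4 of these genes and of Il6, a gene outside the list, are shown as examples. All 4 hold the motif TGACG described below. Jun, Jund, Ier3 and Zfp36, members not shown, hold no match to it. Each line gives the 250 bases before the transcription start, 5′ to 3′ on the coding strand, from RefSeq on GRCm38.p6. Fos lies at chr12:85473640-85473889 (+ strand), Dusp1 at chr17:26508473-26508722 (- strand), Nr4a1 at chr15:101266596-101266845 (+ strand), Atf3 at chr1:191183334-191183583 (- strand) and Il6 at chr5:30012864-30013113 (+ strand). Capitals mark the half-site TGACG of the cAMP response element on either strand, its full form TGACGTCA, the TATAAA box and, in Il6, the AP-1 motif TGANTCA, with overlapping matches merged.
Fos: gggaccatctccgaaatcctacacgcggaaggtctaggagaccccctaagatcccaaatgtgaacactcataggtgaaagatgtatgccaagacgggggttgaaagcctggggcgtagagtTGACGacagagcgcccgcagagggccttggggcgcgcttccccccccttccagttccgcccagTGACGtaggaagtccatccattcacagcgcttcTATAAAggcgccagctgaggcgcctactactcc
Dusp1: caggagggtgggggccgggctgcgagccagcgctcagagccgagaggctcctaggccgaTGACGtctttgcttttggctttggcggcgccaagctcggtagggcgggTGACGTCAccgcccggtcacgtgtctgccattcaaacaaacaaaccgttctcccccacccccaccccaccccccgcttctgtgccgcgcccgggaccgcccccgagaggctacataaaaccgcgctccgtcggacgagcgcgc
Nr4a1: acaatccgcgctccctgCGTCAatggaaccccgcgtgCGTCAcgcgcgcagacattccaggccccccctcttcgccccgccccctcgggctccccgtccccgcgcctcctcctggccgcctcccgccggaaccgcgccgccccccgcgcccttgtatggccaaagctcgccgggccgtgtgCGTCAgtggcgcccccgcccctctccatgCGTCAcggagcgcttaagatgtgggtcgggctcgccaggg
Atf3: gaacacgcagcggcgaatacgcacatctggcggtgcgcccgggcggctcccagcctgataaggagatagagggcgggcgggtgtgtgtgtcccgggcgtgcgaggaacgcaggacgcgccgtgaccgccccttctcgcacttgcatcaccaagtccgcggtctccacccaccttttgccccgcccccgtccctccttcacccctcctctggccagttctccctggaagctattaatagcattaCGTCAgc
Il6: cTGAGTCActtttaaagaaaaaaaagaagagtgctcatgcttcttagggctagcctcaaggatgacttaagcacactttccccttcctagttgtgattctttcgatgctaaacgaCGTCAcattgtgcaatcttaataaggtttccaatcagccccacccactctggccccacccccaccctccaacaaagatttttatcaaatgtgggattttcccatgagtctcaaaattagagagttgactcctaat
Windows ran from 250 bases before to 50 after the start, and both strands were searched. TGACG was found in 9 of 15 windows of the 11 immediate early genes with a usable window, for 7 of the genes. Some windows of Egr2 overlap each other. Over all 32841 mouse promoter windows TGACG was found in 20.8%. Fos held it 129 and 66 bases before the start, Nr4a1 at 233, 213, 69 and 40, Atf3 at 7 and Il6 at 135. The full TGACGTCA was found in 1 of the 15 windows, that of Dusp1, at 143 bases before the start, and in 1.79% of all windows. TATAAA was found in 2 of the 15, among them that of Fos at 33 bases before the start, and in 13.6% of all windows. TGANTCA was found in 0 of the 15 and in 7.81% of all windows, and in Il6 at 249 bases before the start. A match is a description of the letters and no evidence that a factor binds there.

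Il6 was the clearest cytokine. Il6 (ENSMUSG00000025746, chromosome 5, 30013114 to 30019981, + strand, GRCm38) encodes an inflammatory cytokine that also drives osteoclast formation. It stood at 91.5, 106, 52.9 and 156 CPM in bone and at 0, 0 and 0.317 CPM in brain (adjusted p = 0.00147), 3517 counts against 2. The pooled rate in bone was 1012 times (95% counting interval 279.9 to 8359.5) that in brain. It passed in all 17 alternative analyses, including each that left out a library. Tumour-free values were 52.7, 49.2 and 71.9 CPM in bone and 0.159 and 0.133 CPM in brain.

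Of 13 chemokines and cytokines 4 were higher in bone and 0 in brain (median 3.07). The count was 1 without brain replicate 1 or 2 and 2 without brain replicate 3. Cxcl1, a neutrophil attractant, stood at 473, 69.5, 67.0 and 221 CPM in bone and 0, 0 and 4.12 CPM in brain (log2 7.48 ± 1.71, adjusted p = 0.0234). Ccl2, the main monocyte attractant, stood at 109, 35.1, 28.0 and 106 CPM in bone and 10.96, 9.29 and 10.1 CPM in brain (log2 3.06 ± 0.60, adjusted p = 0.0128). Cxcl10, an interferon-induced chemokine, stood at 51.3, 76.4, 91.1 and 36.2 CPM in bone and 2.56, 14.7 and 23.4 CPM in brain (adjusted p = 0.0492). The tissues did not overlap for these genes. Il1b, which neutrophils and monocytes make, stood at 10.5, 1814, 1468 and 54.5 CPM in bone and 34.5, 115 and 100.1 CPM in brain and did not pass (adjusted p = 0.162). Of 15 interferon response genes 1 passed, Stat2, a subunit of the interferon signalling complex (145, 111, 143 and 222 CPM in bone, 53.2, 72.3 and 102 CPM in brain, adjusted p = 0.0491). Among antigen presentation genes 0 of 9 of class I and 0 of 6 of class II passed. Over all genes tested 5.89% were higher in bone, so these counts do not set the lists apart. By unadjusted p under 0.05 the antigen presentation counts were 2 and 0, with DESeq2 2 and 0 and with limma-voom 3 and 0. Cxcl1 lost its call when brain replicate 1 or 2 was left out (adjusted p up to 0.0761). The call of Ccl2 ended without brain replicate 1, 2 or 3 (adjusted p up to 0.0641). Cxcl10 no longer passed without bone replicate 1, 2 or 3 or brain replicate 1, 2 or 3 (adjusted p up to 0.13). For Stat2 the call ended without bone replicate 1, 3 or 4 or brain replicate 1, 2 or 3, with an adjusted p of up to 0.161. The call of Il6 held whichever library was left out.

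Adhesion molecules that catch leukocytes on vessel walls were higher in bone for 4 of 11 genes (median 2.19), 0 without brain replicate 1 or 3 and 2 without brain replicate 2 or bone replicate 1 or 4. With bone replicates 1 and 4 left out, 9 passed. Sele, E-selectin, which captures rolling cells, stood at 182, 20.4, 42.3 and 355 CPM in bone and 0, 1.45 and 4.75 CPM in brain (log2 6.36 ± 1.46, adjusted p = 0.0239). Selp, P-selectin, stood at 381, 49.4, 76.8 and 581 CPM in bone and 0, 3.10 and 11.7 CPM in brain (log2 5.99 ± 1.53, adjusted p = 0.0337). Icam1, the integrin ligand for firm adhesion, stood at 464, 86.5, 193 and 830.2 CPM in bone and 26.1, 44.3 and 32.2 CPM in brain (log2 3.78 ± 0.79, adjusted p = 0.0168). All 3 were highest in bone replicates 1 and 4 and lowest in bone replicate 2. Itgam, the integrin chain CD11b of myeloid cells, was instead highest in bone replicates 2 and 3 and did not pass, at 40.2, 947, 743 and 23.2 CPM in bone and 186, 433 and 191 CPM in brain (adjusted p = 0.602). The calls of Sele and Icam1 ended without brain replicate 1, 2 or 3 (adjusted p up to 0.0857). Selp no longer passed without bone replicate 1 or 4 or brain replicate 1, 2 or 3 (adjusted p up to 0.111).

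Growth factor genes followed. Of 9 insulin-like growth factor genes 5 were higher in bone (median 2.58), 1 without brain replicate 2 and 2 without brain replicate 1 or 3. Igf1, the ligand, stood at 152, 51.4, 30.4 and 94.1 CPM in bone and 23.5, 18.5 and 9.19 CPM in brain (log2 2.58 ± 0.63, adjusted p = 0.0297). Igfbp4, which binds the ligand, stood at 870.4, 367, 436 and 373 CPM in bone and 41.0, 66.2 and 61.1 CPM in brain (adjusted p = 0.00427). Igfbp5, a binding protein held in bone matrix, stood at 3732, 926, 1613 and 2516 CPM in bone and 178, 416 and 492 CPM in brain (adjusted p = 0.0257). The tissues were separate for all 3 genes.

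Of 13 TGF-beta and BMP genes 4 were higher in bone (median 1.73), 0 without brain replicate 1 or 3 and 2 without brain replicate 2. Tgfb1, the ligand stored in bone matrix, stood at 169.9, 193, 190.1 and 159.9 CPM in bone and 58.1, 95.5 and 43.7 CPM in brain (log2 1.73 ± 0.34, adjusted p = 0.0131). Ltbp1, which anchors its latent form, stood at 324, 61.4, 113 and 179 CPM in bone and 17.7, 32.0 and 19.2 CPM in brain (log2 3.18 ± 0.63, adjusted p = 0.0137), and Bmp2, a bone morphogen, at 122, 12.4, 17.9 and 62.7 CPM in bone and 0.933, 5.99 and 2.85 CPM in brain (log2 4.31 ± 1.03, adjusted p = 0.0271). The receptors Tgfbr1 and Tgfbr2 did not pass (adjusted p = 0.195 and 0.301). For Igf1 and Bmp2 the calls ended without bone replicate 4 or brain replicate 1, 2 or 3, with an adjusted p of up to 0.114. Igfbp5 lost its call when brain replicate 1, 2 or 3 was left out (adjusted p up to 0.0917). The calls of Tgfb1 and Ltbp1 ended without brain replicate 1 or 3 (adjusted p up to 0.0718). The call of Igfbp4 held whichever library was left out.

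Of 10 ligands of the ERBB receptors, the family that includes HER2, 2 were higher in brain and 1 in bone. Over all genes tested the shares were 9.34% and 5.89%, so these counts are too small to set the family apart. The median of the ligands was 0.86, and -0.32 without bone replicate 3. Nrg3, a neuregulin of neurons, stood at 0.410, 0.225, 0.291 and 0.343 CPM in bone and 87.7, 16.3 and 47.0 CPM in brain (log2 -6.99 ± 0.68, adjusted p = 0.00164). Tgfa, a ligand of the EGF receptor, stood at 12.7, 5.74, 14.4 and 15.1 CPM in bone and 67.1, 72.9 and 76.5 CPM in brain (log2 -2.33 ± 0.37, adjusted p = 0.00593). Areg, another EGF receptor ligand, stood at 0.684, 8.56, 5.62 and 1.83 CPM in bone and 0, 0 and 0.317 CPM in brain, 155 counts against 2 (adjusted p = 0.0463). The groups were separate for all 3, and the 2 brain-higher calls held in every fit that left out a library. In the semaphorin 4D group, whose receptors are B plexins, 1 of 6 genes was higher in each tissue, again too few to set the group apart. Plxnb3, a plexin of oligodendrocytes, stood at 19.7, 4.96, 7.95 and 21.0 CPM in bone and 93.5, 120.4 and 113 CPM in brain (log2 -2.75 ± 0.52, adjusted p = 0.0114), and Met, the hepatocyte growth factor receptor that pairs with plexins, at 26.4, 47.6, 58.2 and 33.7 CPM in bone and 18.2, 17.96 and 7.92 CPM in brain (log2 1.78 ± 0.42, adjusted p = 0.0268). Sema4d itself did not pass, at 36.1, 193, 235 and 39.6 CPM in bone and 93.3, 246 and 134 CPM in brain (adjusted p = 0.968). For Areg the call ended without brain replicate 1, 2 or 3, with an adjusted p of up to 0.119. Met lost its call when bone replicate 3 or brain replicate 1, 2 or 3 was left out (adjusted p up to 0.0967). The calls of Nrg3, Tgfa and Plxnb3 held whichever library was left out.

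The antioxidant, hypoxia and unfolded protein response lists held 2 bone-higher genes each. Over all genes tested 5.89% were higher in bone, and 1798 of 17807 with bone replicates 1 and 4 left out. Of 15 antioxidant genes 2 were higher in bone, 1 without any 1 brain replicate and 9 with bone replicates 1 and 4 left out. Txnrd1, a reductase of the thioredoxin system, stood at 339.6, 181, 192 and 211 CPM in bone and 25.4, 55.5 and 61.1 CPM in brain (adjusted p = 0.0097), and Gpx3, a secreted glutathione peroxidase, at 771, 96.4, 93.6 and 187 CPM in bone and 18.4, 15.7 and 23.0 CPM in brain (adjusted p = 0.0204). Cybb, the core of the phagocyte oxidase, did not pass, with 39.4, 1431, 721 and 19.6 CPM in bone and 41.0, 202 and 81.6 CPM in brain (adjusted p = 0.24). Of 11 hypoxia and glycolysis genes 2 were higher in bone, among them Hk2, the hexokinase of muscle and proliferating cells (148, 83.9, 106 and 165 CPM in bone, 50.8, 63.1 and 39.6 CPM in brain, adjusted p = 0.0188). Of 10 unfolded protein response genes 2 were, among them Atf4, the translation-stress factor (286, 338, 288 and 179 CPM in bone, 82.1, 121 and 86.0 CPM in brain, adjusted p = 0.0144). The hypoxia count was 0 without brain replicate 1 or 3 and 1 without brain replicate 2 or bone replicate 1. The unfolded protein count was 0 without brain replicate 1 or 3 and 1 without bone replicate 1 or 3. DESeq2 called 5 of each list, and limma-voom 4 and 6. Over all 17272 genes tested these tools called 2491 and 1618 higher in bone. Gpx3 no longer passed without brain replicate 1, 2 or 3 (adjusted p up to 0.0822). For Hk2 and Atf4 the calls ended without brain replicate 1 or 3, with an adjusted p of up to 0.0915. The call of Txnrd1 held whichever library was left out.

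The Brx50 bone libraries did not share one composition. Neutrophil genes of the secondary granules summed to 215, 57507, 28472 and 338 CPM in bone replicates 1 to 4, to 42.9, 4172 and 179.9 CPM in the brain replicates and to 32009, 44044 and 38863 CPM in tumour-free bone. Bone replicates 2 and 3 lay near the tumour-free level, and replicates 1 and 4 far below it. Cell cycle genes split the same way, at 236, 3622, 1504 and 404 CPM in bone and 98.9, 572 and 278 CPM in brain. S100a9, a protein that fills neutrophil cytoplasm, stood at 32.0, 17890.0, 6728 and 17.7 CPM in bone and 15.4, 1171 and 44.7 CPM in brain (adjusted p = 0.283). Mpo, the myeloperoxidase of neutrophil precursors, stood at 0, 599, 469.5 and 2.51 CPM in bone and 0, 88.4 and 0.9504 CPM in brain (adjusted p = 0.393). Brain replicate 2 held more of both than bone replicates 1 and 4.

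With edgeR 0 of 7 primary granule, 0 of 13 secondary granule and 0 of 16 cell cycle genes passed beside Brx50, with medians of 3.62, 3.98 and 2.14. In tumour-free mice all of the 8, 13 and 16 tested were higher in bone, with medians of 10.4, 10.6 and 5.24. Beside Brx50 an unadjusted p under 0.05 was found for 2, 1 and 8 of these genes, DESeq2 called 2, 2 and 8, and limma-voom 0, 1 and 2. Over all 17272 genes tested DESeq2 called 2491 higher in bone and limma-voom 1618. With bone replicates 1 and 4 left out, 4, 2 and 12 passed, and over all genes 1798 of 17807 were then higher in bone. With bone replicates 2 and 3 left out, 0 of each passed. The endothelial and fibrillar collagen sums ran the other way among the bone libraries, at 4488, 747, 1752 and 4502 CPM and 97028, 11693, 11720.0 and 16549 CPM in replicates 1 to 4. Of 10 erythroid genes 0 were called by edgeR, 1 by DESeq2 and 1 by limma-voom, 1 had an unadjusted p under 0.05, and for 1 the bone libraries all lay above the brain libraries. Their median was -0.33, and it was 2.76 without brain replicate 2 and 0.01 without bone replicate 1.

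**Figure D3:**
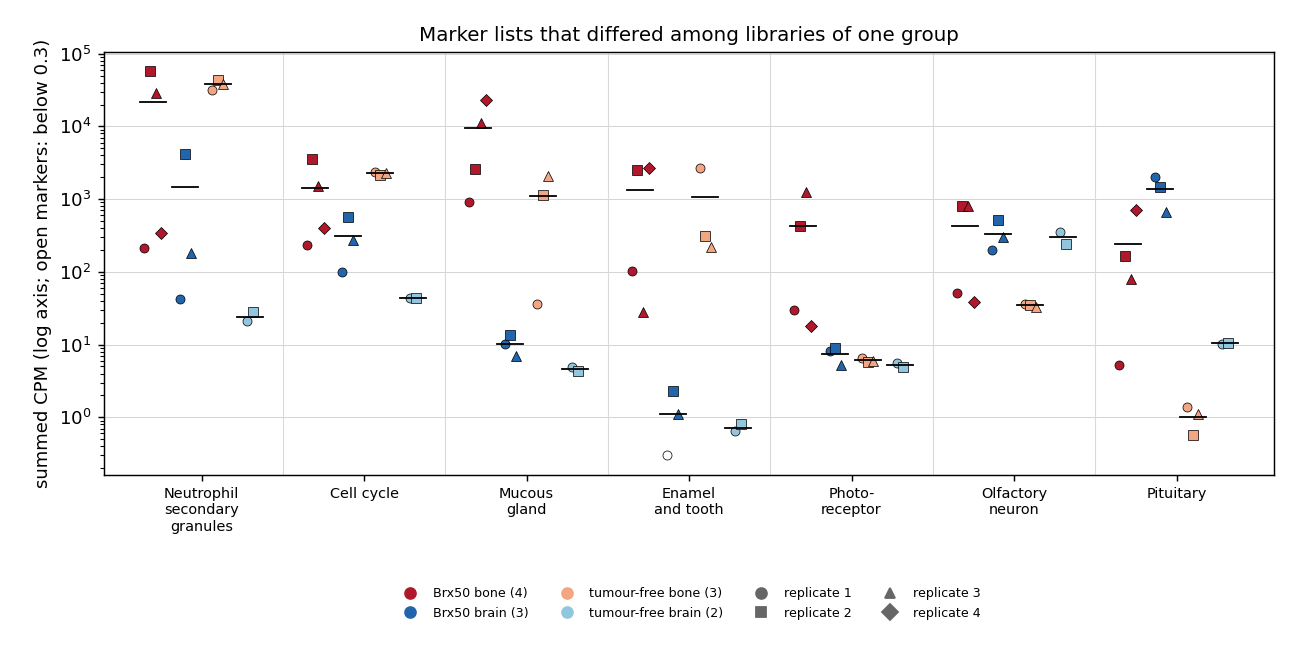
Summed CPM of 7 marker lists in each library, on a log axis with open markers below 0.3 CPM, for the 4 groups, with a bar at each group mean and the symbol shape giving the replicate. Brx50 bone replicates 2 and 3 lie above replicates 1 and 4 for neutrophil, cell cycle, photoreceptor and olfactory genes, and the 3 pituitary sums of Brx50 brain (666 to 2006 CPM) lie above both tumour-free brain sums.

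Transcripts of organs that neither label names also separated the libraries, and they supplied most of the bone-higher genes of largest fold. The 10 chosen by fold, with at least 10 CPM and no overlap, were the enamel genes Ambn, Amelx and Odam, the mucosal secretion genes Muc5b, Muc19, Dmbt1, Gp2 and Bpifb2, the rod photoreceptor kinase gene Grk1 and the steroid sulfate transporter gene Slc10a6. Muc5b, a gel-forming mucin, stood at 897, 1667, 5630.2 and 20506 CPM in bone and 10.03, 8.16 and 4.59 CPM in brain (log2 10.11 ± 1.53, adjusted p = 0.00497). Dmbt1, a mucosal scavenger protein, stood at 3.83, 244, 2748 and 999 CPM in bone, with 1 count in brain (adjusted p = 0.0114). Gp2, a glycoprotein of secretory cells, stood at 10.8, 39.4, 152 and 177 CPM in bone with none in brain, at least 192-fold higher. Bpifb2, a secreted protein of mucosal glands, stood at 16.4, 53.2, 182 and 485 CPM in bone, with 3 counts in brain. Bone replicates 3 and 4 were highest for these 4 genes and replicate 1 lowest. Muc19, another gel-forming mucin, stood at 15.2, 35.8, 71.7 and 598 CPM in bone with none in brain (at least 364-fold higher), and Slc10a6 at 35.8, 4.62, 10.4 and 42.8 CPM in bone with none in brain (at least 47.3-fold higher). Tumour-free bone held Muc5b too, at 24.6, 994 and 2028 CPM in its 3 libraries.

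Ambn, the enamel matrix protein ameloblastin, stood at 24.4, 870.1, 8.82 and 1196 CPM in bone with no counts in brain (at least 1061-fold higher, adjusted p = 0.028). Amelx, amelogenin, stood at 14.9, 1366, 9.21 and 868 CPM in bone and 0, 0.826 and 0 CPM in brain (log2 10.91 ± 2.52, adjusted p = 0.0243). Odam, an ameloblast protein, stood at 31.3, 5.63, 7.37 and 20.2 CPM in bone with none in brain (at least 32.6-fold higher, adjusted p = 0.00759). Bone replicates 2 and 4 were the highest for Ambn and Amelx, and replicates 1 and 4 for Odam. An enamel and tooth list, written after these values were seen, had 4 of 6 tested genes higher in bone (median 9.35, or 7.65 with genes at 0 set at their bounds), 1 without any 1 brain replicate and 2 without bone replicate 4. It summed to 2689, 310.1 and 217 CPM in tumour-free bone. Mucous gland genes were higher for 3 of 5 (median 10.1, or 8.51 with bounds), 1 without brain replicate 1 or 3, and squamous epithelium genes for 5 of 9, with Krt5, a basal keratin, at 56.6, 26.8, 213 and 69.7 CPM in bone and 0.466, 0.723 and 0.475 CPM in brain. The calls of Dmbt1 and Muc19 ended without brain replicate 1 or 3 (adjusted p up to 0.0726). Ambn no longer passed without bone replicate 4 or brain replicate 1, 2 or 3 (adjusted p up to 0.0794). For Amelx the call ended without brain replicate 1, 2 or 3, with an adjusted p of up to 0.0937. Muc5b, Gp2, Bpifb2, Odam and Slc10a6 were called in each fit that left out 1 library.

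Photoreceptor genes were higher in bone for 3 of 6 (median 6.47, or 4.25 with bounds), and 0 passed without any 1 of the brain replicates. Grk1 stood at 1.37, 22.4, 79.3 and 1.26 CPM in bone and had no counts in brain (adjusted p = 0.0477). Bone replicates 2 and 3 were the highest. Omp, a protein of mature olfactory neurons, stood at 1.64, 216, 271 and 2.17 CPM in bone and 6.99, 141 and 19.8 CPM in brain and did not pass (adjusted p = 0.603), with bone replicates 2 and 3 and brain replicate 2 high. Of 8 olfactory neuron genes 0 passed with edgeR, DESeq2 or limma-voom, and 0 had an unadjusted p under 0.05. The call of Grk1 ended without bone replicate 2 or 3 or brain replicate 1, 2 or 3 (adjusted p up to 0.113).

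Pituitary hormone genes were present in both tissues beside Brx50. Gh, growth hormone, stood at 0, 80.6, 39.9 and 159 CPM in bone and 950.3, 902 and 281 CPM in brain (adjusted p = 0.169). Prl, prolactin, stood at 0, 54.6, 3.78 and 513 CPM in bone and 875, 416 and 259 CPM in brain (adjusted p = 0.558). Pomc, the precursor of corticotropin, stood at 1.23, 29.2, 36.3 and 23.8 CPM in bone and 169, 163 and 122 CPM in brain (adjusted p = 0.0686). Bone replicate 1 held none of Gh or Prl, whereas bone replicate 4 held more Prl than brain replicates 2 and 3. Of the 5 tested pituitary genes 0 passed with edgeR, and 1 had an unadjusted p under 0.05. The median was -1.63, toward brain. Pomc passed as higher in brain in 5 of 17 alternatives, among them DESeq2, limma-voom and edgeR without bone replicate 1. Gh did so in 2, among them edgeR without bone replicate 1, and Prl in 1. The list summed to at most 10.5 CPM in any tumour-free library. Epithelial and tumour genes summed to 132, 191, 943 and 528 CPM in bone and 46.6, 214 and 118 CPM in brain, with 1 of 10 called in bone (Cldn4, a tight junction protein), 6 without bone replicate 1 and 0 without brain replicate 1 or 3. The part of any of these other cell types in the bone and brain differences was not tested.

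The last question was whether the difference between bone and brain is itself different beside Brx50 from that in tumour-free mice. It was tested as (Brx50 bone - Brx50 brain) - (tumour-free bone - tumour-free brain) over 12 libraries. With edgeR's quasi-likelihood test 0 of 19592 genes passed (0%), while 2608 (13.3%) had an unadjusted p under 0.05. DESeq2 called 920 (4.7%), 580 of them positive, and limma-voom with quality weights 751 (3.83%), 475 of them positive. Without bone replicate 1 edgeR called 230 in all, 196 positive and 34 negative. The median of all genes was 0.11, and 0.20 and 0.26 with RLE and upper quartile scaling.

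The 6 genes of smallest p in each direction had adjusted p of 0.11 to 0.14. On the positive side, Ank2, a membrane anchor of axons, stood at 108, 159.7, 229 and 203 CPM in Brx50 bone, 1514, 1046 and 1432 CPM in Brx50 brain, 29.7, 31.2 and 33.6 CPM in tumour-free bone and 1910.1 and 1788 CPM in tumour-free brain. Its bone minus brain difference was -2.67 ± 0.38 beside Brx50 and -5.71 in tumour-free mice. Gnao1, Adgrl3, Sv2a, Robo2 and Slc4a8, genes of neuronal signalling, adhesion, vesicles, axon guidance and bicarbonate transport, followed, with differences of -2.60 ± 0.29, -1.89 ± 0.28, -4.13 ± 0.33, -0.67 ± 0.32 and -1.30 ± 0.45 beside Brx50 against -4.60, -4.13, -6.58, -3.30 and -4.81 in tumour-free mice. For all 6 the Brx50 bone libraries lay above the tumour-free bone libraries. The genes were picked by p from these same libraries, so this separation adds no support for a difference.

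On the negative side, Csf2rb, the shared receptor chain for GM-CSF and interleukin 3, stood at 91.5, 281, 255 and 203 CPM in Brx50 bone, 42.0, 70.1 and 62.2 CPM in Brx50 brain, 292, 266 and 304 CPM in tumour-free bone and 6.86 and 10.1 CPM in tumour-free brain. Its difference was 2.10 ± 0.44 beside Brx50 and 5.23 in tumour-free mice. Rhbdf2, Rab7b, Elf4, Ggta1 and Tnfaip2, which serve TNF release, endosomal sorting, transcription in leukocytes, sugar chain synthesis and the TNF response, had differences of 2.88 ± 0.33, 1.30 ± 0.35, 2.46 ± 0.35, 1.54 ± 0.31 and 3.22 ± 0.46 beside Brx50 against 5.44, 4.11, 4.95, 3.43 and 6.28. For these 6 genes the Brx50 brain libraries lay above both tumour-free brain libraries. They too were picked by p from these same libraries, so the separation adds no support.

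**Figure D4:**
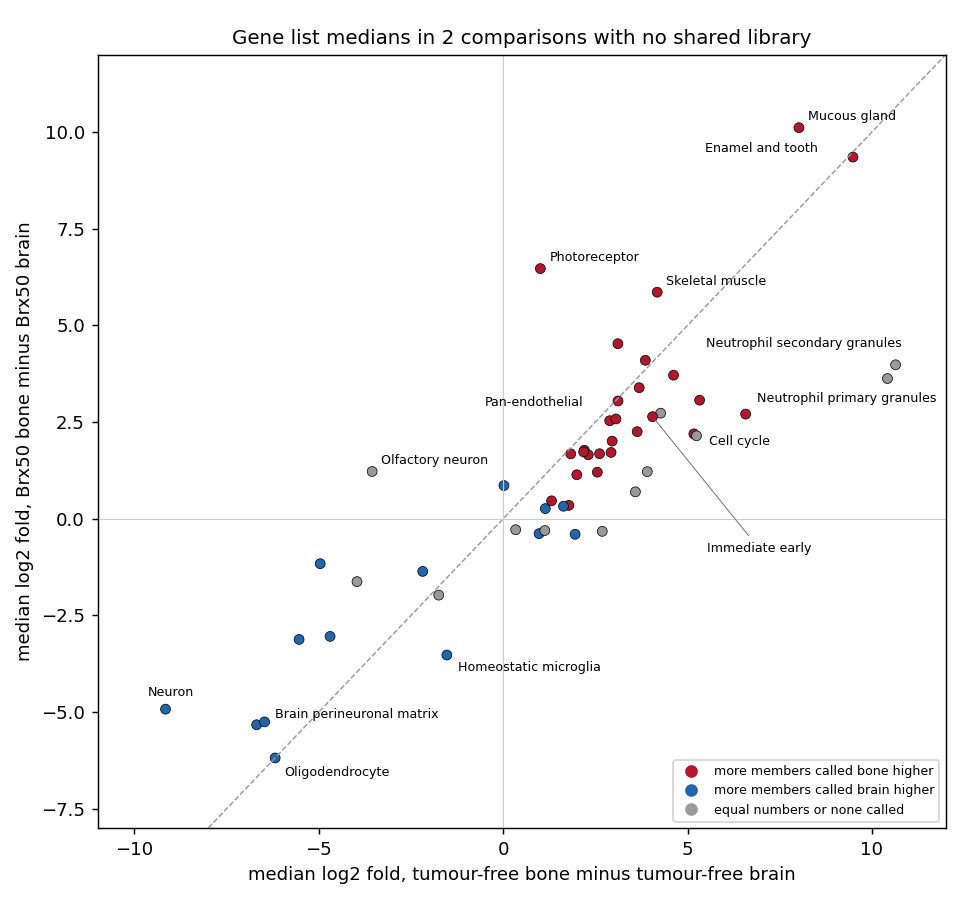
Median log2 of bone over brain for 53 gene lists with at least 4 members tested beside Brx50, in tumour-free mice (x axis) and beside Brx50 (y axis), with the dashed line at equal values. Each median is over the members tested in that comparison. For 36 lists both medians are above 0, for 11 both are below 0, and for 6 the signs differ.

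By lists, the 2 comparisons share no library, and their medians can be set side by side as a description. Oligodendrocyte genes had the same median in both, -6.19 beside Brx50 and -6.18 in tumour-free mice, and so nearly did shared endothelial genes, at 3.04 and 3.11. Neuron genes were at -4.92 against -9.16 and perineuronal matrix genes at -5.25 against -6.47. Homeostatic microglia genes were at -3.53 against -1.53. Immediate early genes were at 2.64 against 4.05, leukocyte adhesion genes at 2.19 against 5.17 and fibrillar collagen genes at 3.71 against 4.62. Skeletal muscle genes were at 5.86 against 4.18. Photoreceptor genes were at 6.47 (4.25 with bounds) over 6 tested genes beside Brx50, against 1.01 over 4 tested genes in tumour-free mice. These differences of medians were not tested.

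Some genes passed beside Brx50 and were tested and not called in tumour-free mice. They were 27 higher in bone, among them Neb and Cmya5, large proteins of the muscle sarcomere, and 5 higher in brain: Arsg, Josd2, Kcnmb1, Gm867 and Slamf8. Arsg, a lysosomal sulfatase, stood at 3.69, 10.02, 14.8 and 3.43 CPM in bone and 43.4, 86.6 and 63.2 CPM in brain (log2 -2.74 ± 0.57, adjusted p = 0.0162), against 16.6, 26.2 and 23.7 CPM in tumour-free bone and 24.2 and 35.4 CPM in tumour-free brain. Neb, nebulin, stood at 105, 70.2, 28.9 and 91.3 CPM in bone and 24.7, 16.3 and 12.8 CPM in brain (log2 2.35 ± 0.51, adjusted p = 0.0196), against 22.7, 38.8 and 35.6 CPM in tumour-free bone and 26.8 and 30.9 CPM in tumour-free brain. The Brx50 groups did not overlap for either gene, while the tumour-free ranges overlapped for both. These genes were named after their values were seen, and for both the difference between the 2 comparisons did not pass with edgeR (adjusted p = 0.227 and 0.222). Arsg no longer passed without brain replicate 2 or 3 (adjusted p up to 0.0609). The call of Neb was not followed in the fits that left out a library.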

How the data were processed

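Whole-number counts per gene for each library were deposited by the authors. Per the submitters' processing notes, tools included STAR 2.5.2b and HTSeq, and builds hg19, GRCh37, mm10 and GRCm38.p5. Of the strand setting, the annotation and the separation of human tumour reads nothing is stated in the sources used here. Of 43346 gene IDs 42462 matched a symbol (GENCODE M21, GRCm38), and the other 884 held 0.132% of counts.

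The test was the quasi-likelihood F-test of edgeR 4.0.16, run in R 4.3.3 (TMM scaling, filterByExpr, robust fit, Benjamini-Hochberg adjustment over all genes tested, threshold 0.05, no fold limit). The 7 Brx50 libraries were fitted alone, the 5 tumour-free libraries alone, and all 12 together for the difference of differences. DESeq2 1.42.0 and limma 3.58.1 (voom) were alternatives, as were other scaling, no filter, added samples, a minimum fold and leaving out libraries. The procedure was checked on simulated data. CPM takes no account of gene length and is compared between libraries only. Floors are 3 counts per library, and floors and counting intervals (95%) cover counting error only. Fewer counts behind a value make it less certain, and Brx50 brain replicate 1 was the shallowest library.

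Named genes were, per direction, the 10 of largest fold among those past the threshold with at least 10 CPM in the higher group, no overlap and a proper symbol, then from each list the 3 members of highest group mean, and for the difference of differences 6 per direction, by p where none passed. Further genes were chosen for their role or after their values were seen. The comparison and the gene lists were chosen with earlier results of these data known. The list genes Ahsp and Ca9 had no row. Genes with near-identical copies or antisense partners may share reads. A few genes are not reported here.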

Additional observations from a re-analysis of the deposited data

Results flagged for a closer look

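Of 173 values examined over the 4 Brx50 bone libraries, 25 (14.5%) had 1 library far from the other 3, its gap to the nearest, as a share of the group's range, above Dixon's 95% critical value. Chance alone gives about 1 in 20 for independent, normally distributed values. CPM was used without a log, so high values stand apart more easily and 14.5% is no measure of an excess. The values are also not independent, since list sums hold some of the same genes. For 4 genes (Gabrg1, Hs3st4, Slc25a18 and Sox1) there were 1 or 2 counts in 1 library and 0 in the others, which exceeds the critical value by construction. The brain group, with 3 libraries, was too small for this check.

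Bone replicate 1 stood alone for connective tissue. It held the highest Col1a1 (29805 CPM), Postn (3537 CPM), Dcn (2395 CPM), Mmp2 (1566 CPM), Comp (524 CPM), Cilp (270.3 CPM), Ibsp (249 CPM), Igfbp4 (870.4 CPM) and Gpx3 (771 CPM). Its list sums for fibrillar collagens (97028 CPM) and for joint and cartilage (4602 CPM) stood apart as well.

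Bone replicate 3 stood apart for Ttr (6.50 CPM, highest). The counts of Hs3st4 and Slc25a18 (0.0970 CPM each) and of Sox1 (0.194 CPM) were also in this library, too few to set it apart. Sall1, a microglial and embryonic factor (13.9 CPM), Sv2a, a synaptic vesicle protein (14.0 CPM), and the list sums for dendritic cells (132 CPM) and lung epithelium (23.4 CPM) also set it apart.

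Bone replicate 4 stood alone for Muc19 (598 CPM), Prl (513 CPM) and Gad1 (2.51 CPM), for Calr, a chaperone of the endoplasmic reticulum (255 CPM), lowest of the 4, and for the complement sum (797 CPM), lowest likewise. It held the single count of Gabrg1 (0.114 CPM). Bone replicate 2 stood alone for none of the 173 values.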

How the results depend on the processing

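Genes called higher in Brx50 bone (1017 in the analysis as reported) numbered 2491 with DESeq2, 1618 with limma-voom, 2525 with the 5 tumour-free libraries in the fit, 1930 with all 30 libraries, 394 with a minimum fold of 2, 1798 without bone replicates 1 and 4 and 1655 without bone replicates 2 and 3, and 290 to 1231 when 1 library was left out. Genes called higher in Brx50 brain (1613) numbered 2604 with limma-voom, 3057 with the tumour-free libraries, 957 with the minimum fold and 772 to 1367 when 1 library was left out. Counts for the difference of differences (0 in both directions) were 6 positive without the low-count filter, 580 positive and 340 negative with DESeq2, 475 and 276 with limma-voom, and 0 to 196 and 0 to 34 when 1 library was left out. The cause was not tested. Other counts over all genes stayed within 1.5 times. Leaving out pairs of bone replicates and the block by column number were chosen after the data were seen. Of 116 named genes with a value 105 were called, 49 of them in every fit without 1 library, and 0 reversed. Of 57 list medians 7 changed sign in at least 1 alternative: erythroid, anterior Hox, disease-associated microglia, dendritic cell, complement, ERBB ligand and RNA quality genes.

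A replicate block could be fitted for the tumour-free libraries, whose sample titles number bone and brain replicates 1 and 2 alike. It gave 6470 bone-higher and 6676 brain-higher genes, and 0 and 0 for the difference of differences. Same-numbered deviations from the group means correlated at -0.055 and -0.061. With only 2 brain libraries, their deviations mirror each other, so such correlations cannot tell whether the numbers mark pairs. The table's column names instead number the brain libraries 2 and 3. By those numbers the correlations were 0.061 and -0.0025, and the block gave 6915 bone-higher and 7109 brain-higher genes, and 0 for the difference of differences in both directions. No paired analysis was possible for the Brx50 libraries, because they share only the code 83.2. Depth limits the brain values most, since a floor of 3 counts averages 0.495 CPM there against 0.346 CPM in bone.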

Other observations

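Smaller cell populations added a few calls. Of 3 tested adipocyte genes 2 were higher in bone: Fabp4, a fatty acid carrier that capillaries also make, stood at 447, 144, 133 and 482 CPM in bone and 0, 2.06 and 0.475 CPM in brain (log2 8.58 ± 1.17, adjusted p = 0.00355), and Pparg, the adipocyte regulator, at 21.1, 6.19, 12.02 and 19.8 CPM in bone and 3.73, 3.20 and 3.01 CPM in brain (log2 2.43 ± 0.56, adjusted p = 0.0233). The count was 1 without bone replicate 1 or any 1 brain replicate. Of 11 pericyte and smooth muscle genes 2 were higher in bone, Des, the muscle intermediate filament, and Abcc9, a potassium channel subunit of pericytes. Des stood at 77.0, 40.1, 37.1 and 50.7 CPM in bone and 5.13, 9.19 and 3.48 CPM in brain (log2 3.40 ± 0.49, adjusted p = 0.00424). That count was 5 without bone replicate 2 and 1 without bone replicate 1 or 4 or any 1 brain replicate.

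Blood-forming progenitor genes were split, with Kit, Cd34 and Gata2 higher in bone and Hlf, a factor that neurons also make, higher in brain, of 10 tested. The bone-higher count was 0 without bone replicate 3 or brain replicate 2 or 3, and 1 without bone replicate 4 or brain replicate 1. Pf4, a chemokine of platelets, stood at 2.05, 1.58, 6.59 and 2.40 CPM in bone, with 1 count in brain (adjusted p = 0.0224). It was 1 of 2 called among 4 tested megakaryocyte and platelet genes, and that count was 0 without bone replicate 3 or brain replicate 1 or 3, and 1 without bone replicate 1 or brain replicate 2. Of the 6 oligodendrocyte precursor genes Sox10, the regulator of the whole lineage, was higher in brain (19.4, 8.45, 42.3 and 17.7 CPM in bone, 97.5, 128 and 126 CPM in brain, adjusted p = 0.0214). Pdgfra, which fibroblasts share with precursors, was higher in bone (369, 79.2, 105 and 238 CPM in bone, 36.4, 35.8 and 59.7 CPM in brain, adjusted p = 0.0335), and its list had no bone-higher gene without bone replicate 4 or any 1 brain replicate.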
